A study of Homo sapiens with 6 samples.

Results

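The genes described here are 52 genes of mitosis and the spindle, taken by symbol from 56637 gene symbols in the count files. They hold 11 mitotic cyclins, kinases and phosphatases, 10 genes of the spindle checkpoint, the anaphase-promoting complex (APC/C) and sister separation, and 8 centromere and kinetochore genes. The other members are 9 spindle motors, 7 spindle microtubule, midzone and cytokinesis genes, 6 genes of chromosome structure and the transcription factor FOXM1. RNA had been sequenced from MM.1S, an established human multiple myeloma (plasma cell cancer) line, after lentiviral transduction with a short hairpin RNA (shRNA) and puromycin selection. One group of 3 libraries carried an shRNA against luciferase (shLuc, the control) and the other group of 3 an shRNA against KDM6B (shKDM6B), a histone demethylase gene. The comparison asks which mitotic genes differ between shKDM6B and shLuc libraries. All libraries come from the same line, and the labels name a single hairpin target per group and no rescue, so loss of KDM6B and other effects of its hairpin cannot be told apart. Whether the 3 libraries of a group came from separate cultures is not stated, and the p-values cover only library-to-library spread, possibly technical.

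Entry into mitosis is driven by CDK1 bound to cyclin A or B, held back by WEE1 and released by CDC25 phosphatases, with the polo-like and Aurora kinases acting beside it. Kinetochores then bind chromosomes to spindle microtubules, kinesin motors shape the spindle, and the spindle checkpoint holds back the APC/C until every chromosome is attached. Once the APC/C is active it marks cyclin B and securin for destruction, and the midzone proteins direct cytokinesis. Transcripts of most of these genes peak late in the cell cycle. Their promoters often carry CCAAT boxes and a cell cycle homology region (CHR), and the MuvB complexes and FOXM1 act through the CHR.

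The promoters of 44 members were found in the RefSeq table of GRCh38.p14. The 8 members without an entry are WEE1, AURKA, TTK, BUB3, UBE2C, TPX2, BIRC5 and FOXM1. The table lists more than 1 start for 10 of the 44, and the first listed start of each gene was used. In the 250 bases before it, the CHR core TTTGAA was present on either strand in 22 of 44 members, against 8.16% of 9292 promoters of tested genes and 13.6% of all 27305. The letters CCAAT were present on either strand in 29 of 44 (65.9%), against 35.3% of the promoters of tested genes and 33% of all. Both were found in 16 members (36.4%, against 3.31% of tested genes), and neither in 9 (20.5%, against 59.8%). Counted at any listed start, 23 members held the CHR core and 32 held CCAAT, against 11.9% and 41.8% of tested genes. Neither motif contains the other, and no distinction was made where matches overlap. A match is a description of the sequence and not a mapped binding site, and its absence says only that the letters are not in this window. The last 150 bases before the start are printed below on the strand of the gene, in lower case with both motifs in capitals, where TTCAAA and ATTGG are their reverse complements. PRC1 and KIF11 are the members with the largest fall and the largest rise, PLK1 and KIF23 are a smaller fall and a smaller rise with both motifs, and CENPE and NUF2 are the kinetochore genes that fell most.
PRC1: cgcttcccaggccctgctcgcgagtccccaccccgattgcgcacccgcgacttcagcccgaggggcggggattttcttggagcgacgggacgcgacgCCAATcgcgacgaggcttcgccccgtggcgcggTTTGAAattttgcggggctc
KIF11: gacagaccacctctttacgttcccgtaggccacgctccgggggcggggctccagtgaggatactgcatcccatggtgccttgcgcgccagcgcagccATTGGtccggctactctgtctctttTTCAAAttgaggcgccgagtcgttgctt
PLK1: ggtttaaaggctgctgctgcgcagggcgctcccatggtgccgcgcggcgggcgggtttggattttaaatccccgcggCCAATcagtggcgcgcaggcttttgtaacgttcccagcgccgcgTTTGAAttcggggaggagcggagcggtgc
KIF23: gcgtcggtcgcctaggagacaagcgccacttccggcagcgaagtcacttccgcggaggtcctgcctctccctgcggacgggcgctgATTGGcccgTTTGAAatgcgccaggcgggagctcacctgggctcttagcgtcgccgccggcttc
CENPE: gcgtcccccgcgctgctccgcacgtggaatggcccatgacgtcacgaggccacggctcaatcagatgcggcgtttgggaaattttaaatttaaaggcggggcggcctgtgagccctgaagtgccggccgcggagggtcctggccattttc
NUF2: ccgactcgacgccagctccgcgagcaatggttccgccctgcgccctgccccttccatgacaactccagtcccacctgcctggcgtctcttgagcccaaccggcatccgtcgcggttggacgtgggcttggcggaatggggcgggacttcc
The windows are PRC1 at chr15:90994536-90994685, minus strand, KIF11 at chr10:92592980-92593129, plus strand, PLK1 at chr16:23678739-23678888, plus strand, KIF23 at chr15:69414199-69414348, plus strand, CENPE at chr4:103198344-103198493, minus strand and NUF2 at chr1:163321804-163321953, plus strand. In PRC1 and KIF11, whose transcripts moved in opposite directions, the CCAAT match began 53 bases before the start, and the CHR match 20 bases before it in PRC1 and 28 in KIF11. Both matches lie on the strand of the gene in PRC1 and on the opposite strand in KIF11. The CHR core was present in 3 of 6 members that rose and have a promoter entry, in 7 of 16 that fell and in 12 of 22 that did not pass, shares whose difference was not tested. Of the 8 kinetochore genes, 4 held neither motif in the window at the first listed start, namely CENPE, NUF2, NDC80 and CENPI. These are 4 of the 5 kinetochore genes that fell, and a link was not tested. Which start MM.1S uses was not measured, so these windows may not be the promoters in use. All 5 promoters of the midzone and cytokinesis genes held at least 1 of the motifs.

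Totals ran from 7338393 to 8996159 counts in shLuc libraries and from 7952156 to 9848351 in shKDM6B libraries. Levels are given as CPM, the counts scaled to library size by the TMM method. Log2 CPM of libraries of the same group correlated at 0.994 to 0.995, and of different groups at 0.981 to 0.983. KDM6B itself was lower in each shKDM6B library, at 239, 270 and 348 raw counts against 409, 505 and 437, a change of -0.71 on the log2 scale (adjusted p = 7.72e-08, edgeR). All 8 plasma cell markers were present, from 591 counts (CD38) to 5400 (IRF4) in a library. Of these, CD38 (-0.45) and TNFRSF17 (-0.37) fell and PRDM1 (0.15) rose on the log2 scale, and 5 did not pass. Of the mature B cell markers, MS4A1, CD22 and PAX5 had 0 to 2 counts, while CR2 had 660 to 982 and BACH2 456 to 885. BACH2 fell by more than CD38 (log2 fold change -0.575, adjusted p = 2.65e-08, edgeR), and CR2 did not pass (-0.049). Keratinocyte transcripts were seen in some libraries. The summed level of 8 epithelial and keratin genes was 10.7, 2.60 and 2.87 CPM in the shLuc libraries, in order of replicate number, and 28.4, 42.9 and 1.72 CPM in the shKDM6B libraries. The 4 fibroblast markers summed to 0.22 to 0.96 CPM in shLuc and 0.40 to 3.47 CPM in shKDM6B libraries. Below, library values always follow the replicate number.

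Mitosis and spindle genes moved in both directions and by small amounts. All 52 had enough counts to be tested by edgeR's quasi-likelihood test, and 9 rose and 16 fell at an adjusted p under 0.05, while 27 did not pass. That is 48.1% called, where 39.1% of all 13839 tested genes and 45.2% of the 8874 with a mean CPM at least that of the lowest member were called. By direction, 20.1% of all tested genes rose and 18.9% fell, or 25.0% and 20.2% of those at the members' levels. Leaving out the 3 libraries with the most keratin counts (shLuc replicate 1 and shKDM6B replicates 1 and 2) leaves a single shKDM6B library. That library has no spread of its own, so only effect sizes are given below for this setting. The setting is still counted among the 17 alternatives. The part of the keratin transcripts in the changes of the members was not tested further. The 3 shKDM6B values lay wholly above the 3 shLuc values for 11 members and wholly below them for 20, against 48.4% of all tested genes in either direction. Of the 25 called changes 18 were under 1.2-fold, as were 2105 of the 5405 called among all tested genes. PRC1 alone of the 52 members passed at 1.5-fold or more, as 9.38% of all tested genes did. The median log2 fold change of the members was -0.071 against -0.005 over all tested genes. Summed over the members, the level was 7619, 7447 and 7532 CPM in shLuc and 7174, 7258 and 7094 CPM in shKDM6B libraries, without overlap. This sum was taken by the TMM scaling alone and weights abundant genes most. Among these, MKI67 had means of 618 CPM in shLuc and 542 CPM in shKDM6B, and CENPF of 401.5 and 327 CPM. By sign under the TMM scaling, 36 members had a negative and 16 a positive log2 fold change, against 7059 and 6780 of all tested genes. In these bulk libraries, fewer cells in mitosis and less RNA per cell cannot be told apart.

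**Figure D1:**
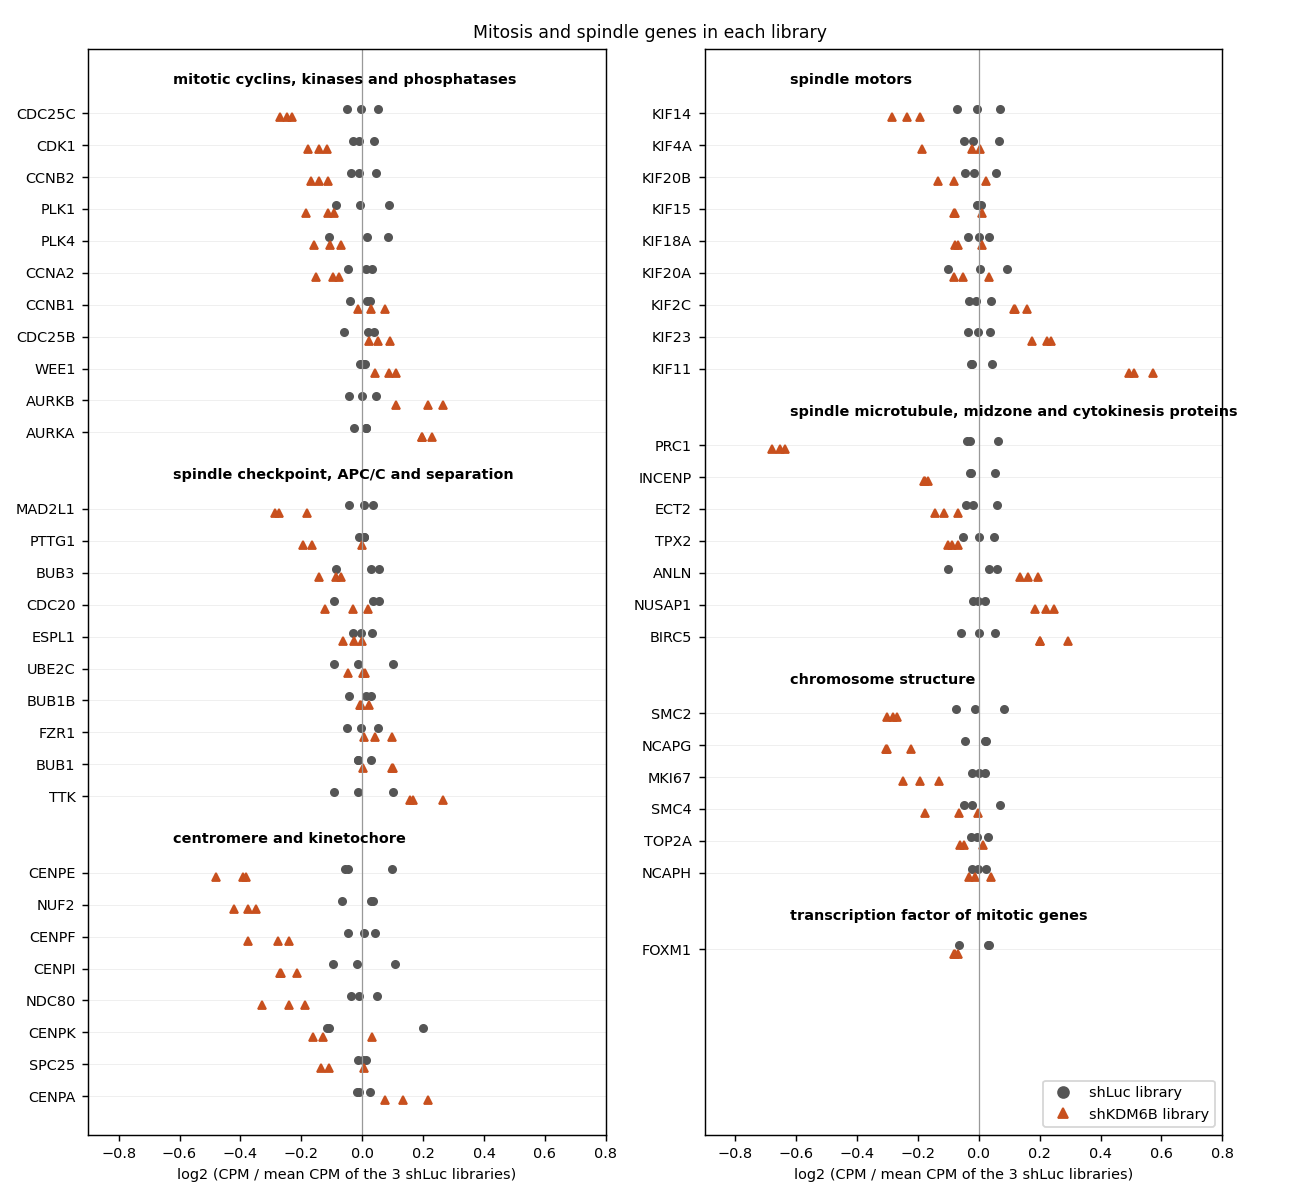
Each library's CPM divided by the mean of the 3 shLuc libraries, on a log2 axis, for all 52 genes grouped by role and ordered by log2 fold change. Grey circles are shLuc libraries and orange triangles shKDM6B libraries, and the triangles of PRC1 and KIF11 stand farthest from their circles.

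The balance of rises and falls depended on the scaling. Per base of merged exon, the members were dense in reads, with 0.051 to 0.62 counts per base in their deepest library and a median of 0.27, against a median of 0.10 over the 12587 tested genes with a known length. When TMM factors came from 2850 sparse genes, those under 0.03 counts per base (sparse-gene scaling), 10 members rose and 9 fell, so that 52.6% of the calls were rises instead of 36.0%. The median of the members then was -0.001 and that of all tested genes 0.065. The same scaling gave 3559 rises and 1734 falls over all genes (67.2% rises against 51.5%). Members that fell under the first scaling but did not pass under the second were CCNB2, CDK1, CDC25C, PLK1, CENPI, INCENP and MKI67, with adjusted p values up to 0.579 (PLK1).

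Kinetochore genes, which join centromeres to spindle microtubules, fell in 5 of 8 cases, and 0 rose and 3 did not pass, at a median log2 fold change of -0.25; by sparse-gene scaling 4 fell and 1, CENPA, rose. CENPE, a kinesin that moves chromosomes along microtubules at the kinetochore, stood at 108, 107.5 and 119.7 CPM in the shLuc libraries and at 80.0, 85.8 and 85.2 CPM in the shKDM6B libraries. Every shKDM6B library was below every shLuc library, and the log2 fold change was -0.42 (SE 0.050, adjusted p = 7.15e-07). NUF2, a subunit of the microtubule-binding NDC80 complex, went from 90.2, 84.1 and 89.7 CPM to 67.8, 69.2 and 65.7 CPM. These values did not overlap either (log2 fold change -0.38, SE 0.049, adjusted p = 1.66e-06). CENPF, a large protein of the outer kinetochore and the member of this group with the highest level per kilobase, went from 413, 388 and 403 CPM to 310, 340 and 331 CPM. Its log2 fold change was -0.30 (SE 0.047, adjusted p = 3.22e-05). NDC80, the partner of NUF2, fell by 0.25 on the log2 scale (adjusted p = 6.04e-04), and CENPI, a subunit of the constitutive centromere network, by 0.26 (adjusted p = 0.0233). The CENPI call ended without shLuc replicate 2, shKDM6B replicate 2 or shKDM6B replicate 3, and CENPI did not pass by DESeq2 (adjusted p = 0.213).

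Of the 3 remaining kinetochore genes, CENPA, the histone H3 variant that marks centromeres, had 25.5, 26.2 and 25.4 CPM in shLuc and 29.9, 27.1 and 28.3 CPM in shKDM6B libraries. The shKDM6B values were all above the shLuc values, yet the change did not pass (log2 fold change 0.14, 95% interval -0.015 to 0.30, adjusted p = 0.147), and it passed by sparse-gene scaling (0.21, adjusted p = 0.0325). SPC25, another NDC80 subunit, and CENPK, of the constitutive network, had log2 fold changes of -0.082 and -0.084 with intervals from -0.25 to 0.08 and from -0.27 to 0.099. Summed over the 8 genes, the level was 756 to 796 CPM in shLuc libraries and 616 to 655 CPM in shKDM6B libraries, with no overlap. CENPF made up the largest part of this sum, with means of 401.5 CPM in shLuc and 327 CPM in shKDM6B. Of the 8 log2 fold changes, 7 were negative and 1 was positive, against 7059 and 6780 of all tested genes.

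Among the spindle motors, 3 of 9 rose, 1 fell and 5 did not pass. KIF11, the bipolar kinesin that pushes spindle poles apart, showed the largest rise of all members. Its level was 131.6, 131.8 and 138.1 CPM in the shLuc libraries and 188.6, 199.1 and 190.7 CPM in the shKDM6B libraries. All shKDM6B libraries were well above the shLuc libraries, by 0.53 on the log2 scale (SE 0.043, adjusted p = 2.34e-09). That is 144% of the control. KIF23, the motor subunit of centralspindlin, went from 104, 102 and 107.5 CPM to 118, 123.5 and 122 CPM (log2 fold change 0.21, SE 0.044, adjusted p = 4.26e-04). KIF2C, a kinesin that takes apart microtubule ends, went from 103, 108 and 104.5 CPM to 114, 114 and 117 CPM. Neither gene's groups overlapped, but the KIF2C change was small (0.13, adjusted p = 0.0197) and missed the threshold without shLuc replicate 1 or 3 or shKDM6B replicate 2 or 3. KIF2C also did not pass by DESeq2 (adjusted p = 0.150).

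KIF14, a motor of late cytokinesis, was the motor that fell, from 120.0, 125.6 and 132.3 CPM to 107.0, 103.4 and 110.1 CPM (log2 fold change -0.24, SE 0.047, adjusted p = 2.76e-04). Its groups did not overlap. The chromokinesin KIF4A, KIF15 (which backs up KIF11 in the spindle), KIF18A (which limits chromosome movement), KIF20A and KIF20B (both motors of cytokinesis) had log2 fold changes from -0.067 to -0.025, with overlapping groups and adjusted p values from 0.354 to 0.743. The near-identical gene KIF4B held 24 counts over all libraries, 0.59% of those of KIF4A, so reads of that pair may be split.

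The midzone, passenger and cytokinesis genes split between 3 rises and 2 falls among 7 genes, and 2 did not pass; by sparse-gene scaling 3 rose and 1 fell. PRC1, which bundles the overlapping microtubules of the midzone, had 205.8, 193.3 and 192.1 CPM in the shLuc libraries and 126.9, 125.3 and 123.0 CPM in the shKDM6B libraries. The groups stood far apart, and the log2 fold change was -0.655, with an SE of 0.044 (adjusted p = 1.04e-10), the largest change of the 52 genes, and shKDM6B at 63.5% of shLuc. In GENCODE release 29 another gene model on the same strand covers 57.6% of the exon bases of PRC1 and another covers 62.2% of those of NUSAP1, and how the authors' counting treated reads shared with such models is not given here. INCENP, the scaffold of the chromosomal passenger complex, went from 181.3, 191.5 and 181.1 CPM to 163.5, 164.4 and 163.0 CPM (-0.17, SE 0.042, adjusted p = 0.00205), without overlap.

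BIRC5, the passenger subunit survivin, rose from 47.4, 43.8 and 45.6 CPM to 55.9, 52.4 and 52.4 CPM (log2 fold change 0.23, SE 0.058, adjusted p = 0.00268). NUSAP1, which binds and stabilises spindle microtubules, rose from 131.7, 129.6 and 128.1 CPM to 151.2, 154.1 and 147.6 CPM (0.22, SE 0.042, adjusted p = 2.50e-04). ANLN, the actin-binding scaffold of the cleavage furrow, rose from 92.8, 84.5 and 94.4 CPM to 99.4, 101 and 104 CPM (0.17, SE 0.049, adjusted p = 0.00919). The groups of all 3 were separate, with the narrowest gap in ANLN, which did not pass without shLuc replicate 2 or by DESeq2 (adjusted p = 0.0878). BIRC5 did not pass by DESeq2, and without the 3 keratin-bearing libraries its log2 fold change was 0.229. ECT2, the exchange factor that activates RHOA at the cleavage furrow, and TPX2, which activates Aurora A on the spindle, had log2 fold changes of -0.11 (adjusted p = 0.0570) and -0.085 (adjusted p = 0.128). Their groups were also separate, with shKDM6B lower. ECT2 passed under 4 of 17 alternatives, among them the fit without shLuc replicate 1, and TPX2 passed with the replicate number as a block.

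Of the cyclins, kinases and phosphatases, 2 of 11 rose, 4 fell and 5 did not pass. The 4 falls were small, and 0 of them passed by sparse-gene scaling or by DESeq2. Without the 3 keratin-bearing libraries their log2 fold changes ran from -0.252 (CDC25C) to -0.138 (PLK1). Both Aurora kinases rose. AURKA, the spindle pole kinase, went from 75.4, 73.4 and 75.4 CPM to 87.6, 85.7 and 85.6 CPM (log2 fold change 0.21, SE 0.046, adjusted p = 9.26e-04). AURKB, the kinase of the passenger complex, went from 99.1, 93.2 and 96.0 CPM to 115.6, 111.6 and 103.8 CPM (0.20, SE 0.048, adjusted p = 0.00239). No shKDM6B value of either gene reached down to the shLuc values. With the 3 keratin-bearing libraries left out, the log2 fold change of AURKB was smaller, at 0.135.

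The core of the mitotic switch changed little. CDK1 stood at 121.7, 116.0 and 117.6 CPM in shLuc libraries and at 109.3, 107.4 and 104.6 CPM in shKDM6B libraries (log2 fold change -0.14, SE 0.043, adjusted p = 0.0109). CCNB2, a cyclin B, went from 80.3, 85.0 and 81.8 CPM to 76.2, 73.4 and 74.6 CPM (-0.14, SE 0.047, adjusted p = 0.0195). Both were separate between groups, at 90.5% and 90.7% of the control, and both calls ended without shKDM6B replicate 3, that of CCNB2 also without shLuc replicate 2 or shKDM6B replicate 2. CCNB1, the main cyclin B, had 137.6, 138.6 and 132.3 CPM in shLuc and 143.3, 139.0 and 135.0 CPM in shKDM6B libraries. Its groups overlapped (log2 fold change 0.030, 95% interval -0.060 to 0.12, adjusted p = 0.630). CDC25C, a phosphatase that activates CDK1, fell from 21.1, 22.7 and 21.8 CPM to 18.4, 18.2 and 18.7 CPM (-0.25, SE 0.086, adjusted p = 0.0256), a separate but sparsely covered gene whose call ended without shLuc replicate 2, shKDM6B replicate 1 or shKDM6B replicate 2.

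PLK1, the polo-like kinase of mitotic entry and spindle assembly, went from 230.8, 216.0 and 204.2 CPM to 203.5, 200.7 and 190.8 CPM (log2 fold change -0.13, SE 0.048, adjusted p = 0.0371). The lowest shLuc and the highest shKDM6B value nearly met, and the call ended without shLuc replicate 1 or 2 or shKDM6B replicate 2 or 3. CCNA2 (cyclin A), CDC25B, WEE1 and the centriole kinase PLK4 did not pass, with log2 fold changes of -0.11, 0.056, 0.081 and -0.12 and adjusted p values of 0.0504, 0.345, 0.134 and 0.101. CCNA2 lay just outside the threshold and passed under 4 of 17 alternatives. PLK4 passed without shLuc replicate 1.

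**Figure D2:**
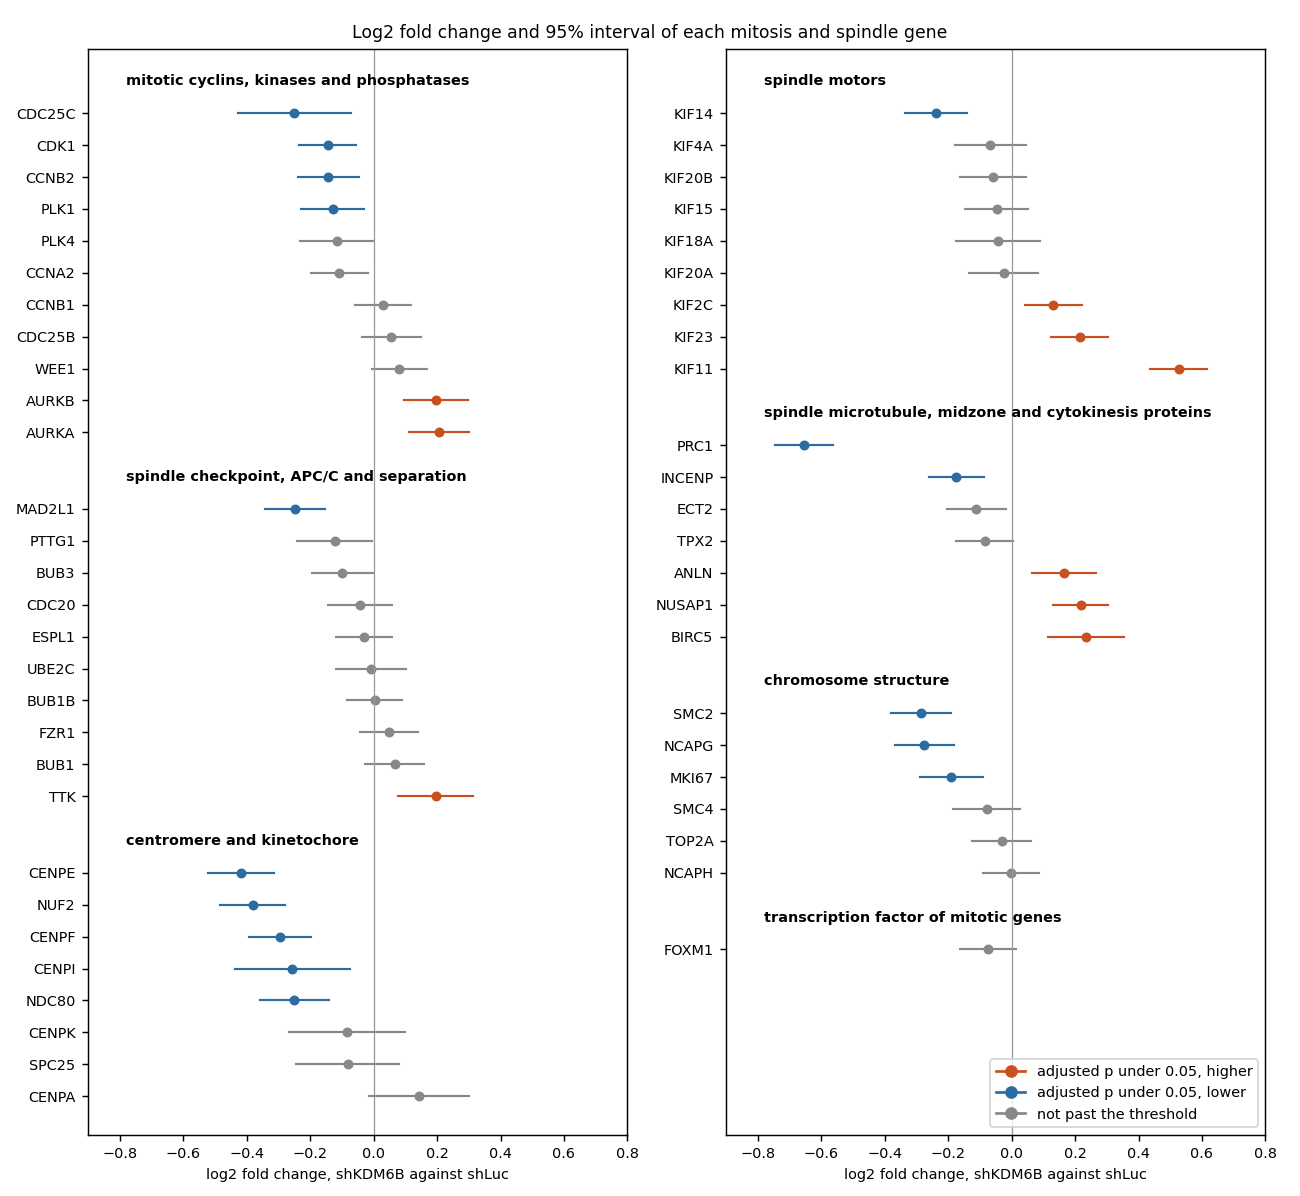
Log2 fold change of each gene, shKDM6B against shLuc, as a point with its 95% interval from the quasi-likelihood fit (3 libraries per group). Blue marks the 16 genes that fell, orange the 9 that rose and grey the 27 that did not pass. Kinetochore genes lie mostly left of 0.

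Among groups of more than 1 gene, checkpoint and APC/C genes had the lowest share of calls: 1 of 10 rose, 1 fell and 8 did not pass, 20.0% called. MAD2L1, the checkpoint protein that binds and blocks CDC20, fell from 109.4, 105.7 and 111.6 CPM to 90.1, 96.1 and 89.2 CPM (log2 fold change -0.25, SE 0.046, adjusted p = 1.72e-04). TTK, the kinase that starts checkpoint signalling, rose from 55.9, 59.0 and 63.9 CPM to 66.4, 66.9 and 71.6 CPM (0.20, SE 0.056, adjusted p = 0.00825). Groups did not overlap for either gene. By DESeq2 the adjusted p of TTK was 0.0870. The checkpoint genes BUB1, BUB1B and BUB3 had log2 fold changes of 0.067, 0.003 and -0.099. The APC/C activators CDC20 and FZR1, its ubiquitin-conjugating enzyme UBE2C, securin (PTTG1) and separase (ESPL1) had values of -0.043, 0.048, -0.008, -0.12 and -0.030. Among these 8 genes the 95% intervals reached no lower than -0.24 and no higher than 0.16. PTTG1 passed without shKDM6B replicate 1, and BUB3 passed without shLuc replicate 2 or with the replicate number as a block. Of copies of these genes, the processed pseudogene of CDC20 held 167 counts, 2.40% of those of CDC20.

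Genes of chromosome structure fell in 3 of 6 cases and rose in 0; by sparse-gene scaling 2 fell. SMC2, a core subunit of both condensins, went from 178.8, 171.2 and 190.8 CPM to 148.4, 149.6 and 146.3 CPM (log2 fold change -0.28, SE 0.046, adjusted p = 3.00e-05). NCAPG, a subunit of condensin I, went from 125.6, 119.8 and 125.8 CPM to 100.3, 106.0 and 100.4 CPM (-0.28, SE 0.044, adjusted p = 3.32e-05). Both genes had separate groups. In GENCODE, exons of LCORL on the opposite strand cover 33.1% of those of NCAPG, and in a count without strand their reads cannot be told apart. MKI67, the proliferation marker that coats mitotic chromosomes, went from 619, 609 and 627 CPM to 520.0, 565 and 540.4 CPM (-0.19, SE 0.048, adjusted p = 0.00292), also without overlap.

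SMC4, NCAPH and TOP2A, the topoisomerase that untangles sister chromatids, did not pass. TOP2A had 420.5, 404.6 and 409.5 CPM in shLuc and 397.6, 415.5 and 394.4 CPM in shKDM6B libraries, with overlapping groups (log2 fold change -0.032, 95% interval -0.13 to 0.062, adjusted p = 0.616). FOXM1, a transcription factor of late cell cycle genes, had 161.5, 161.9 and 151.2 CPM in shLuc and 149.9, 149.6 and 150.8 CPM in shKDM6B libraries. Its shKDM6B values lay just below the shLuc values, and the change did not pass (-0.074, 95% interval -0.16 to 0.015, adjusted p = 0.182). Per kilobase of merged exon, shLuc levels ran from 5.37 CPM for CENPI and 6.56 CPM for CDC25C to 63.9 CPM for TOP2A and 67.8 CPM for CDC20. Over the 52 genes the log2 fold change had a Pearson correlation of -0.22 with log2 exon length and of -0.007 with log2 mean CPM, across genes that share the same 6 libraries.

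Some members were also set beside their partners in mitotic complexes. The partners named here that are not among the 52 come from lists of other mitosis genes, and RACGAP1, NCAPD2, SPC24, HJURP and OIP5 were picked after their values were seen. In the chromosomal passenger complex AURKB and BIRC5 rose and INCENP fell. The remaining subunit, borealin (CDCA8), went from 125.9, 127.8 and 126.1 CPM to 68.3, 65.1 and 69.5 CPM (log2 fold change -0.90, SE 0.045, adjusted p = 1.70e-12). At the central spindle PRC1 fell and its motor partner KIF4A did not pass, while KIF23 rose and RACGAP1, its centralspindlin partner, did not pass (0.015), at 144.9, 142.2 and 142.1 CPM against 150.2, 145.4 and 138.6 CPM. In the NDC80 complex the NDC80 and NUF2 subunits fell, and SPC24 (-0.034) and SPC25 (-0.082) did not pass. Condensin I showed falls of SMC2, NCAPG and NCAPD2 (-0.12, adjusted p = 0.0270, a call that ended without any 1 of 5 libraries, all but shLuc replicate 3), whereas SMC4 (-0.079) and NCAPH (-0.002) did not pass. No test of the difference between subunits was run, and in the NDC80 complex and condensin I the intervals of some fallen subunits overlap those of subunits that did not pass.

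**Figure D3:**
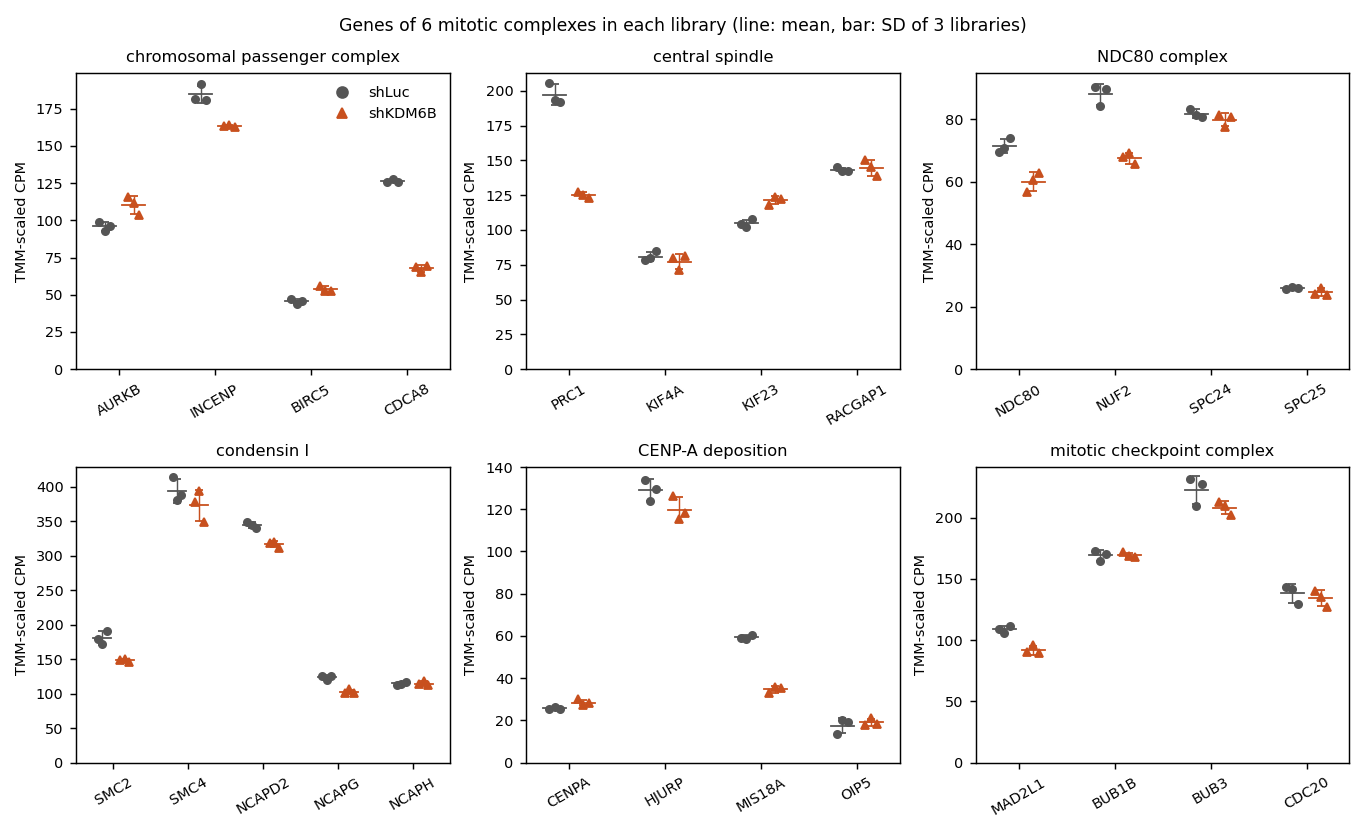
TMM-scaled CPM (linear axis from 0) of genes of 6 mitotic complexes in each library. Grey circles are shLuc and orange triangles shKDM6B libraries, with the mean as a line and the SD of 3 libraries as a bar; CDCA8, MIS18A and PRC1 show the widest gaps between groups.

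Among genes of CENPA deposition, MIS18A, part of the complex that licenses centromeres for new CENPA, went from 59.1, 58.5 and 60.4 CPM to 32.8, 36.0 and 35.1 CPM (log2 fold change -0.77, SE 0.059, adjusted p = 7.51e-10). All shKDM6B libraries were far below the shLuc libraries. Its partner OIP5 (0.10, 95% interval -0.14 to 0.35) and the CENPA chaperone HJURP (-0.11, adjusted p = 0.0738) did not pass.

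The 174 other mitosis genes in 9 lists were chosen for their roles, with earlier results of these data known. Of these, 173 were tested and 24 rose, 32 fell and 117 did not pass. That is 32.4% called, below the 39.1% of all tested genes, with a median log2 fold change of -0.022. By sparse-gene scaling 33 rose and 13 fell. The list of DNA replication genes, the closest other cell cycle group, counted 4 rises, 9 falls and 39 genes that did not pass among 52, with a median of -0.064. The replication factor GINS1 (-0.71) and cyclin E2 (CCNE2, -0.54) fell most there, and ORC2 of the origin recognition complex (0.32) and cyclin E1 (CCNE1, 0.24) rose most. The median of the replication genes was thus close to the -0.071 of the mitosis members, and no test of the difference between these lists was run.

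**Figure D4:**
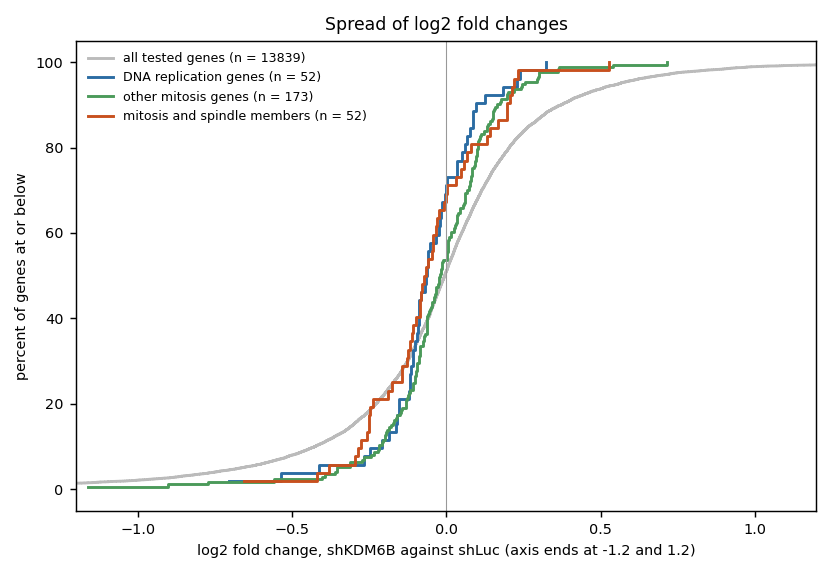
Percent of genes at or below each log2 fold change for the 52 members, 173 other mitosis genes, 52 DNA replication genes and all 13839 tested genes. The 3 cell cycle curves are steeper than that of all genes, and those of the members and the replication genes cross 50% at -0.071 and -0.064.

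Of 31 other kinetochore and centromere genes 6 rose and 3 fell. CENPS (listed as APITD1, 0.36) and CENPT (0.30), both of the constitutive centromere network, rose most, and MIS18A and CENPM (-0.27) fell most. The median of this wider list was -0.023, and no test against the 8 kinetochore members was run. The CENPS call ended without shLuc replicate 2 or 3 or shKDM6B replicate 1 or 2, and by DESeq2. Among 36 other spindle motors and microtubule proteins 5 rose and 7 fell. The augmin subunit HAUS6 (0.54) and the spindle protein FAM83D (0.36) rose, and the motor KIF18B (-0.36) and the spindle pole protein ASPM (-0.31) fell.

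Among 23 other mitotic kinases and regulators, of which 22 were tested, 3 rose and 6 fell. NEK6 (0.30) and CDC25A (0.20) rose, and the Hippo pathway kinase LATS2 (-1.16) and the phosphatase subunit PPP2R2A (-0.28) fell. LATS2 stood at 13.6, 18.2 and 16.2 CPM in shLuc and at 6.11, 7.89 and 7.47 CPM in shKDM6B libraries, with no overlap. Of 16 other APC/C genes, CDC27 (0.15) rose and 3 fell, among them the subunit ANAPC13 (-0.40) and the chain-extending enzyme UBE2S (-0.22). The calls of CDC27 and UBE2S ended without shLuc replicate 1 or shKDM6B replicate 3, and by DESeq2. In the list of 6 other checkpoint and passenger genes 3 fell, led by CDCA8 and MAD2L1BP (-0.36), which takes MAD2L1 off the checkpoint complex.

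Of 9 cytokinesis genes, SEPT9 (0.18) and MYH10 (0.16) rose and RHOA (-0.56) and CEP55 (-0.39) fell. RHOA, the GTPase that sets up the contractile ring, went from 261.2, 242.1 and 235.7 CPM to 168.3, 171.2 and 162.0 CPM, a wide gap between groups (adjusted p = 2.92e-09). Among 14 centrosome genes CEP152 (0.17) rose and CETN3 (-0.36) and CEP63 (-0.21) fell. Among 17 other condensin and cohesin genes CDCA5 (0.12) rose and 4 fell, with ESCO2 (-0.24) and SMC1A (-0.17) among them. Single libraries ended the calls of MYH10 (shLuc replicate 1), CEP152 (shKDM6B replicate 2) and CDCA5 (shLuc replicate 2 or 3, shKDM6B replicate 1 or 2). CEP152, CEP63, CDCA5 and ESCO2 did not pass by DESeq2.

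Of 22 regulators of cell cycle transcription 5 rose and 2 fell, 31.8% called. E2F7, an E2F factor that represses its targets, went from 68.9, 73.3 and 72.2 CPM to 115.1, 118.8 and 118.3 CPM (log2 fold change 0.71, SE 0.045, adjusted p = 5.60e-11). All shKDM6B libraries stood far above the shLuc libraries. NFYC (0.29), a subunit of the factor that binds CCAAT, was the next largest rise, and the retinoblastoma gene RB1 (-0.22) and the MuvB subunit LIN52 (-0.24) fell, LIN52 not without shLuc replicate 1 or 2 or shKDM6B replicate 1 or 2. By sparse-gene scaling neither of these falls passed, and by DESeq2 that of LIN52 did not.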

How the data were processed

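The authors deposited raw counts per gene symbol for each library, and a signal table of normalized values that equal those counts divided by 1 factor per library. Per the labels' protocols, total RNA was made into libraries with the NEBNext Ultra RNA kit, which is not named as strand-marking. The submitters' processing notes list STAR, featureCounts and DESeq and the build GRCh37 (hg19). Their versions, the annotation and the strand and multi-mapping settings are not given here. In each library 1 line without a count was left out.

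The raw counts of the 6 libraries went through edgeR 4.0.16 (R 4.3.3) with filterByExpr, TMM factors and the quasi-likelihood test (glmQLFit, glmQLFTest) on group alone. Adjusted p values are Benjamini-Hochberg over 13839 genes, and each SE was derived from the test statistic. The fit was tested on simulated data. DESeq2 1.42.0 and limma 3.58.1 gave alternatives. Exon lengths (GENCODE release 29) and promoters (RefSeq) are from GRCh38, so they were joined by symbol only. Older symbols of 7 listed genes were matched through RefSeq synonyms. The members and lists were chosen with earlier results of these data known. Members given in every library are, per role, up to 3 risen and 3 fallen with the largest change, plus CCNB1, CDK1, PLK1, AURKB, MKI67, TOP2A and FOXM1. From each other list up to 2 in each direction were named. CENPA, CDCA8, MIS18A, LATS2, RHOA, E2F7 and RACGAP1 were given in every library after their values were seen. Some values, including those of a gene in these lists, are not reported here.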

Additional observations from a re-analysis of the deposited data

How the results depend on the processing

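Of the 25 called members 13 kept their call under all 17 alternatives, 12 lost it under at least 1, and 8 of the 27 others passed under at least 1; 0 reversed. By DESeq2's Wald test 16 members were called, 5 of them higher, with 37 other mitosis genes (13 higher) and 3384 of all genes (1806 higher, 1578 lower). By sparse-gene scaling 9 members, 13 other mitosis genes and 1734 of all genes were lower. Other mitosis genes called higher numbered 15 without the 3 keratin-bearing libraries, where the single shKDM6B library left takes its spread from the shLuc libraries, and 14 at an adjusted p under 0.01. Leaving out 1 library at a time gave 20 to 25 called members, 8 to 9 higher and 12 to 17 lower. With the replicate number as a block, 29 members (9 higher, 20 lower), 71 other mitosis genes and 6218 of all genes were called. Deviations of same-numbered libraries correlated at 0.116, -0.077 and 0.152, and those of differently numbered libraries at -0.179 to 0.066. Libraries numbered 1 and 3 correlated best with their own number, and those numbered 2 did not. Whether same-numbered libraries share a batch was not tested. Members with few counts, such as CENPK, CENPI and CDC25C, had the widest intervals.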
